A study of Mus musculus with 16 samples.

Results

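Collagen chains were followed in interscapular brown fat of C57BL/6J mice, a heat-producing fat depot, by bulk RNA sequencing. The chains were chosen by name: every row of the raw count table whose gene symbol was Col, a number, the letter a and a number. This gave 44 chains of 38924 gene identifiers. They were sorted by type into the fibrillar types I, III and V (6 chains), the basement membrane types IV, XV and XVIII (8 chains), type VI (6 chains) and 24 other chains. Of the 44 chains, 30 had enough counts to be tested, namely 6 of 6 fibrillar, 7 of 8 basement membrane, 4 of 6 type VI and 13 of 24 other chains. The 14 chains that were not tested had at most 16 counts in any library.

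The libraries came from 4 groups with 4 libraries each. Mice lacking Akt2 in brown fat (KO) and their wild-type littermates (WT) spent the ages of 9 to 13 weeks either at thermoneutrality (30 °C) or in cooler housing (22 °C). The knockout used UCP1-CreER, a Cre recombinase driven by the Ucp1 promoter, so recombination is directed to cells that use this promoter, while RNA was taken from whole tissue. Whether every sample is a separate animal is not stated in the labels, and p-values cover only the spread among samples, which may be technical. Library totals ranged from 12751528 to 23866743 counts. Akt2 was at 204 ± 12.9 CPM (the count scaled to the TMM-adjusted library size, mean ± SD, n = 4) in WT and 69.4 ± 10.7 CPM in KO at 30 °C, and at 232 ± 19.8 and 82.2 ± 6.03 CPM at 22 °C, with no overlap between genotypes.

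Collagens are secreted proteins whose chains wind around each other as trimers. Types I, III and V build the fibrils that give connective tissue its strength and are made mainly by fibroblasts. Type IV forms the sheet-like network of basement membranes, which surround every adipocyte and blood vessel, and types XV and XVIII are basement membrane proteoglycans that carry a collagen core. Type VI forms beaded filaments between the basement membrane and the fibrils and is abundant in adipose tissue.

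Start-site sequences are shown for chains of each main class that the results turn on. Col4a1 (chromosome 8, 11198423 to 11312826, minus strand, GRCm38) and Col4a2 (chromosome 8, 11312805 to 11449287, plus strand) are transcribed away from each other from starts that overlap by 22 bases in the annotation. These bases are shown on the plus strand, at chr8:11312805-11312826, from the RefSeq promoter table on GRCm38.p6.
Col4a2 and Col4a1 shared first bases: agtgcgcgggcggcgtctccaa

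The 250 bases before the start of Col3a1, the most abundant fibrillar chain, and of the type VI chains Col6a3 and Col6a2 are given 5′ to 3′ on the strand of each gene, from the same table. Capitals mark the letters TATAAA in Col3a1 and CCGCCC, the reverse complement of GGGCGG, in Col6a2. Col3a1 lies at chr1:45311288-45311537 (plus strand), Col6a3 at chr1:90843972-90844221 (minus strand) and Col6a2 at chr10:76623631-76623880 (minus strand). The 250 bases before another Col6a2 start overlap an exon and are not shown. They held 3 matches to GGGCGG, counting both strands.
Col3a1: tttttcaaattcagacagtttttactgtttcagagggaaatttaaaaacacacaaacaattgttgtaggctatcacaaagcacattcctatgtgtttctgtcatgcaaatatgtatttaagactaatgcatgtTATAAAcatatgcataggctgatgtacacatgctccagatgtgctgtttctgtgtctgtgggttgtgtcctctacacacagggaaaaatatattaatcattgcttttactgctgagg
Col6a3: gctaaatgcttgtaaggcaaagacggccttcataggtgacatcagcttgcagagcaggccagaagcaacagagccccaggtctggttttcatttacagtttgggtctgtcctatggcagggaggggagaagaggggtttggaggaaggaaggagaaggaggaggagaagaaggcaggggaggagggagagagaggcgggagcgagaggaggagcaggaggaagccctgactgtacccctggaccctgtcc
Col6a2: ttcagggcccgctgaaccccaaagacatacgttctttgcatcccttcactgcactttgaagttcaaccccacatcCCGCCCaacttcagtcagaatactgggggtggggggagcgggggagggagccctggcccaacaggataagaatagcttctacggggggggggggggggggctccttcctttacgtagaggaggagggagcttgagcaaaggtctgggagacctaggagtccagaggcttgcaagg

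A window was matched for 35 of the 44 chains. Both strands of the 250 bases before each start were searched for 3 motifs. Over the 32851 windows in the table, 12.4% hold TATAAA. The motif CCAAT is in 33.8% of them, and 32.7% hold GGGCGG. The base composition of the collagen windows differed widely. The window of Col3a1 was 35.2% G and C and that of Col6a3 57.2%. The printed window of Col6a2 was 59.2% and its other window 64.4%, while those of Col4a1 and Col4a2 were 74.4% and 73.6%. The median over all windows was 52.4%. A match of letters is a description and not evidence of a bound factor.

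Col4a1 and Col4a2 were the most abundant collagen chains in these libraries. To set levels of different genes side by side, they were divided by exon length. This length merges all annotated exons of a gene and can exceed that of the transcript present, so the values per kilobase are approximate. Col4a1 stood at 112 CPM per kb (mean of 16 libraries) and Col4a2 at 86.5 CPM per kb. Col3a1 followed at 47.6, Col6a1 at 28.3, Col1a1 at 21.1 and Col5a3 at 18.2 CPM per kb. Col4a1 and Col4a2, which form the common type IV trimer, together held 37.8% to 51.3% of all collagen counts of a library. There were 1.40 to 1.65 counts of Col4a1 for each count of Col4a2 over the 16 libraries. The other type IV chains that were tested were rarer, with ranks of 20 (Col4a5), 28 (Col4a3) and 29 (Col4a4) among the 44 chains. All 44 chains together made up 0.364% ± 0.0319 of raw counts in WT at 30 °C, 0.356% ± 0.0256 in KO at 30 °C, 0.243% ± 0.0242 in WT at 22 °C and 0.300% ± 0.0348 in KO at 22 °C (SD, n = 4). On the CPM used below, whose library sizes are adjusted by TMM factors, the differences were smaller, at 3345 ± 261, 3404 ± 232, 2708 ± 200 and 3064 ± 406 CPM.

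The first comparison asks what cooler housing does to collagen genes of WT brown fat. The main type IV chains, Col4a1 and Col4a2, fell at 22 °C, as did Col4a5. Of the 30 chains tested 12 fell and 2 rose (14 called, edgeR quasi-likelihood test, Benjamini-Hochberg adjusted p under 0.05), where 38.3% of all 14103 genes tested were called, 17.8% as lower and 20.5% as higher. The log2 fold change was below 0 for 25 of the 30. The median log2 fold change of the 30 chains was -0.32, and that of all genes was -0.03. By class, 4 of 7 basement membrane chains fell (median -0.37), 4 of 4 type VI chains fell (median -0.43) and 1 of 6 fibrillar chains fell (median -0.23). The WT libraries of the 2 temperatures overlapped in all 6 fibrillar chains, and did not overlap in 6 of 7 basement membrane chains and 3 of 4 type VI chains, where 35.3% of all genes tested had no overlap. These counts rest in part on single libraries. WT replicate 1 at 30 °C was the highest of its group in all 6 fibrillar chains, and without it 6 chains fell and 2 rose, with 0 of 4 type VI chains called (median -0.31). Without WT replicate 1 at 22 °C 9 chains were called, 1 of them of type VI. Over all genes 4784 of 14313 were called without WT replicate 1 at 30 °C. Without WT replicate 1 at 22 °C it was 4522 of 14294, against 5406 of 14103 in the main fit. In whole tissue, fewer cells of a type and less RNA per cell cannot be told apart.

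**Figure D1:**
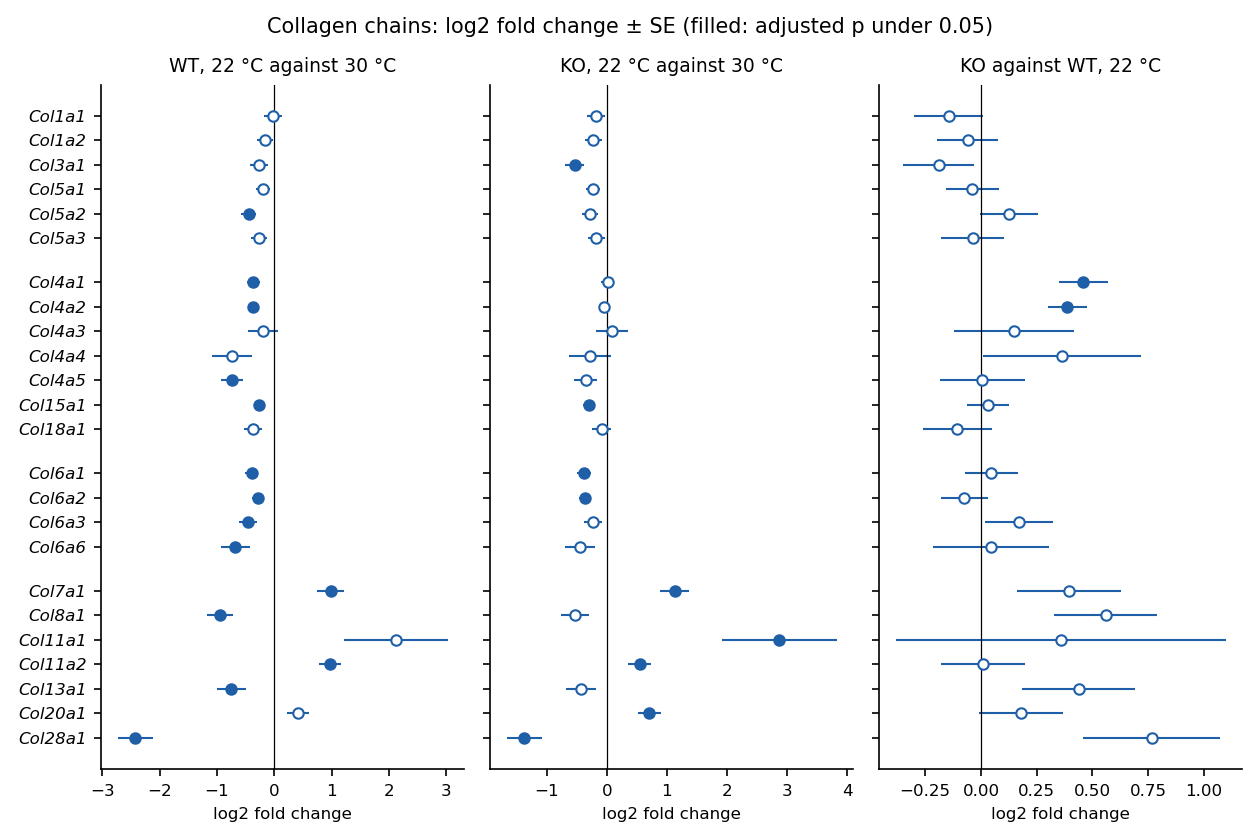
Log2 fold change with its standard error (horizontal axes, which differ in range between panels) for the 24 named collagen chains (vertical axis, grouped as types I, III, V, then types IV, XV, XVIII, then type VI, then other chains) in 3 comparisons with 4 libraries a group; filled points have an adjusted p under 0.05. In the left panel all type VI chains are filled and left of 0, and in the right panel only Col4a1 and Col4a2 are filled.

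Col4a1 read 870, 870, 879 and 806 CPM in WT replicates 1 to 4 at 30 °C and 641, 569, 687 and 762 CPM at 22 °C. Every 22 °C library lay below every 30 °C library. This is a log2 fold change of -0.37 (SE 0.11, adjusted p = 0.0156). Col4a2 read 594, 615, 616 and 559 CPM at 30 °C and 457, 402, 464 and 531 CPM at 22 °C, again without overlap, with a log2 fold change of -0.36 (SE 0.0886, adjusted p = 0.00452). The level of each at 22 °C was thus 77.6% and 77.7% of that at 30 °C. Both calls held in each of the 26 alternative settings, with log2 fold changes from -0.46 to -0.30. Part of these settings left out a library that is in neither of the groups compared.

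Among the minor type IV chains, which replace the common pair in specialised basement membranes, Col4a5 fell from 9.19 ± 1.26 to 5.49 ± 1.35 CPM (log2 fold change -0.74, SE 0.187, adjusted p = 0.00585). Its libraries did not overlap, and the call held in all 26 alternatives. Col4a4 had the same log2 fold change of -0.74 with a wider error (SE 0.347, adjusted p = 0.106), at 0.345 to 1.37 CPM. Col4a3 stood at 1.09 to 2.61 CPM in the WT libraries and differed by -0.20 (SE 0.266, adjusted p = 0.583).

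The basement membrane proteoglycans were split by the threshold. Col15a1 fell from 103 ± 8.74 to 86.0 ± 6.15 CPM (log2 fold change -0.26, SE 0.0935, adjusted p = 0.0356), a call that was lost in 13 of 26 alternatives. Col18a1, whose C-terminal fragment is endostatin, read 34.6 to 42.8 CPM at 30 °C and 23.7 to 34.2 CPM at 22 °C and did not pass (-0.37, SE 0.154, adjusted p = 0.0671).

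Type VI chains moved by similar amounts. Col6a1 read 166, 131, 121 and 138 CPM in WT at 30 °C and 101, 102, 109 and 111 CPM at 22 °C (log2 fold change -0.39, SE 0.118, adjusted p = 0.0159). Col6a2 read 174, 133, 129 and 134 CPM at 30 °C and 106, 122, 120 and 120 CPM at 22 °C (-0.29, SE 0.104, adjusted p = 0.0404). Col6a3, whose C-terminal fragment is endotrophin, read 164, 115, 116 and 125 CPM at 30 °C and 88.0, 84.5, 102 and 103 CPM at 22 °C (-0.46, SE 0.153, adjusted p = 0.0269). In these 3 chains WT replicate 1 at 30 °C was far above the other 30 °C libraries, and the groups did not overlap with or without it. Without it the log2 fold changes were -0.30 (adjusted p = 0.0530), -0.18 (adjusted p = 0.149) and -0.33 (adjusted p = 0.0896). Col6a6, a rarer chain at 1.44 to 3.93 CPM in WT, had -0.68 (SE 0.255, adjusted p = 0.0468), a call lost in 18 of 26 alternatives.

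Of the fibrillar chains 1 passed the test in WT, Col5a2. Col1a1 stood at 142 ± 30.8 CPM at 30 °C and 141 ± 25.5 CPM at 22 °C (log2 fold change -0.02, SE 0.154, adjusted p = 0.941), and its partner in the type I trimer, Col1a2, at 200 ± 39.3 and 179 ± 24.8 CPM (-0.16, SE 0.136). Col3a1 read 699, 449, 409 and 509 CPM at 30 °C and 389, 442, 485 and 403 CPM at 22 °C, with replicate 1 at 30 °C far above all other WT libraries (-0.26, SE 0.159, adjusted p = 0.206). Col5a1 and Col5a3 had -0.19 (SE 0.12) and -0.26 (SE 0.14) and did not pass. Col5a2, a type V chain that helps set fibril diameter, fell from 51.9 ± 8.25 to 38.1 ± 5.93 CPM (-0.45, SE 0.129, adjusted p = 0.0129), with 1 library of overlap, and it was still called without replicate 1 at 30 °C (-0.34, adjusted p = 0.0409). The interval of the change in Col3a1, from -0.58 to 0.05 (95%), contains the change seen in Col4a1. The class difference itself was not tested.

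Summed over each class, fibrillar chains stood at 1104 ± 224 CPM in WT at 30 °C and 951 ± 104 CPM at 22 °C. Basement membrane chains went from 1606 ± 65.7 to 1251 ± 135 CPM and type VI chains from 415 ± 63.0 to 320 ± 18.7 CPM. The sums of the fibrillar class overlapped between temperatures and those of the other 2 classes did not. Col4a1 and Col4a2 make up most of the basement membrane sum, so it mainly repeats their values.

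**Figure D2:**
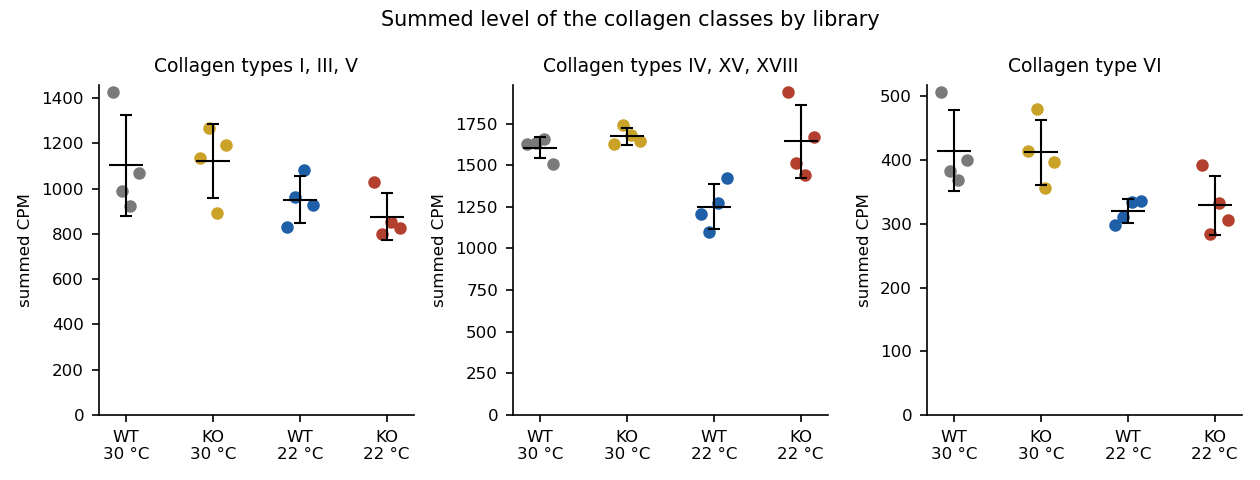
Summed CPM (vertical axes, from 0) of the fibrillar, basement membrane and type VI chains in each library (points, replicates 1 to 4 from left to right) of the 4 groups, with mean and SD (bars, n = 4). In the middle panel the WT libraries at 22 °C lie at 1100 to 1423 CPM, below every library of the other 3 groups.

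Outside these classes, low-abundance chains showed the largest changes. Col28a1 (chromosome 6, 7997808 to 8192617, minus strand), a chain reported in peripheral nerve, read 9.27, 14.5, 12.4 and 9.92 CPM in WT at 30 °C and 1.63, 0.987, 2.75 and 3.14 CPM at 22 °C. The groups were far apart, with a log2 fold change of -2.43 (SE 0.305, adjusted p = 2.46e-05). Markers of Schwann cells, the glia of peripheral nerve, gave 1 of 6 that rose (S100b, 0.88) and none that fell, where 20.5% of all genes rose. Col8a1, a short network-forming chain of vessel walls, stood at 9.17 ± 0.895 CPM at 30 °C and read 3.15, 3.49, 5.06 and 7.38 CPM at 22 °C (-0.94, SE 0.229, adjusted p = 0.00456). Col13a1, a transmembrane collagen of cell contacts, fell from 5.11 ± 0.375 to 3.03 ± 0.892 CPM (-0.75, SE 0.253, adjusted p = 0.0276).

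The chains that rose in WT were Col7a1 and Col11a2. Col7a1, which forms anchoring fibrils beneath epithelia, read 5.29, 4.24, 2.82 and 3.81 CPM at 30 °C and 9.75, 7.36, 6.63 and 8.19 CPM at 22 °C (0.98, SE 0.239, adjusted p = 0.00444). Col11a2, a fibrillar chain known from cartilage, read 8.50, 8.19, 4.89 and 7.74 CPM at 30 °C and 19.6, 11.8, 15.6 and 10.5 CPM at 22 °C (0.98, SE 0.194, adjusted p = 0.00105). All 22 °C libraries lay above all 30 °C libraries for both. The calls of Col28a1, Col8a1, Col7a1 and Col11a2 held in all 26 alternatives. Epithelial markers took up at most 0.000632% of counts in any library, and the 6 tendon and cartilage markers at most 0.000231%. The chains Col12a1, Col14a1, Col16a1, Col23a1, Col27a1 and Col9a3 were tested and not called in any of the 5 comparisons.

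**Figure D3:**
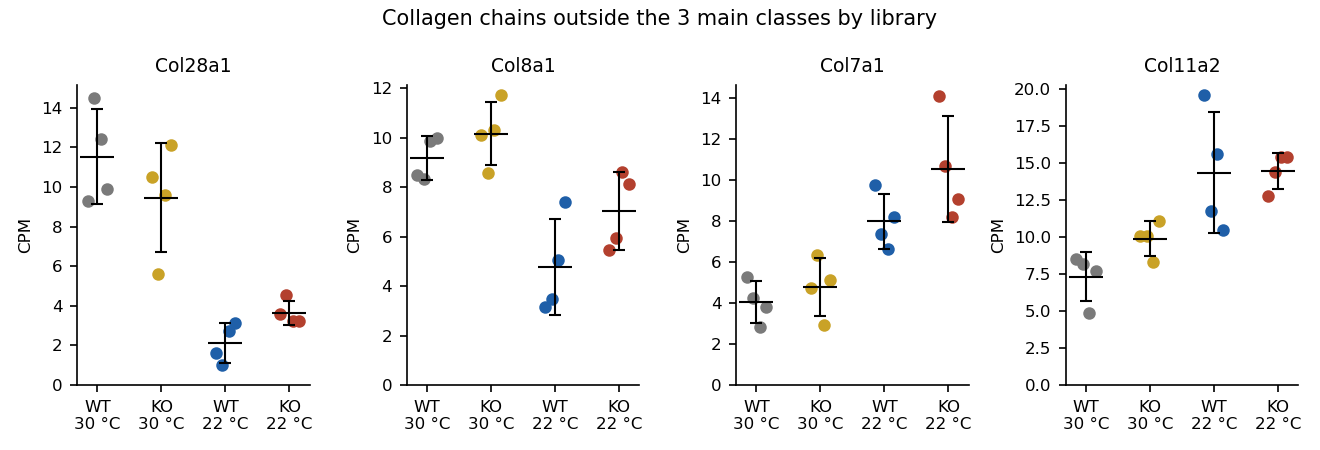
CPM (vertical axes, from 0) of Col28a1, Col8a1, Col7a1 and Col11a2 in each library (points, replicates 1 to 4 from left to right) of the 4 groups, with mean and SD (bars, n = 4). In WT and in KO the 22 °C libraries of Col28a1 lie below, and those of Col7a1 and Col11a2 above, every 30 °C library of the same genotype.

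The second comparison asks the same of KO brown fat. The type VI chains Col6a1 and Col6a2 and the fibrillar chain Col3a1 fell, while Col4a1 and Col4a2 did not pass the test. Of the 30 chains 5 fell and 4 rose (9 called, edgeR), where 26.7% of all genes were called, 13.0% as lower and 13.8% as higher. The median was -0.22 against 0.02 for all genes. By class, 1 of 6 fibrillar (median -0.23), 1 of 7 basement membrane (median -0.09) and 2 of 4 type VI chains (median -0.37) fell. The fibrillar count was 3 of 6 by limma-voom, in a fit on only the groups compared, with upper-quartile factors and without KO replicate 1 at 22 °C. It was 0 of 6 without KO replicate 2 or 4 at 30 °C, without KO replicate 2 or 3 at 22 °C and without the muscle-bearing libraries described next. The type VI count was 0 of 4 without KO replicate 2 at 30 °C. The total also depended on single libraries. Leaving out KO replicate 2 or 4 at 30 °C gave 4 and 5 calls, and leaving out KO replicate 2 or 4 at 22 °C likewise gave 4 and 5. Over all genes these settings called 3321 of 14249, 2900 of 14273, 2966 of 14297 and 2849 of 14294 in this order. The main fit called 3772 of 14103. Skeletal muscle markers took over 0.1% of the counts in 4 libraries, namely KO replicates 1 (0.119%) and 2 (0.404%) at 30 °C, KO replicate 1 at 22 °C (0.653%) and WT replicate 2 at 30 °C (0.263%). None of the 10 markers was called in any comparison (edgeR). Between KO and WT at 22 °C 2 had an unadjusted p under 0.05, where 4888 of all 14103 genes tested did. All 10 were higher in KO there, with log2 fold changes from 2.934 to 6.085 (median 3.746, lowest adjusted p = 0.0579). Their summed share at 22 °C ranged from 0.000417% to 0.653% in KO and from 0.00051% to 0.0259% in WT. Without the 4 muscle-bearing libraries, which leaves 2 KO libraries at 30 °C, 3 chains were called, namely Col28a1, Col7a1 and Col20a1. Over all genes 2115 of 14397 were called in that setting.

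Col4a1 read 869, 944, 898 and 893 CPM in KO at 30 °C and 1135, 826, 762 and 929 CPM at 22 °C. The groups overlapped, and the log2 fold change was 0.02 (SE 0.109, 95% interval -0.20 to 0.23). Col4a2 read 600, 648, 643 and 609 CPM at 30 °C and 689, 568, 543 and 624 CPM at 22 °C, with a log2 fold change of -0.04 (SE 0.0884, 95% interval -0.22 to 0.13). The change of -0.37 seen in WT for Col4a1 and that of -0.36 for Col4a2 lie outside these intervals. The intervals are approximate, since they use a normal multiple of the SE and are somewhat narrower than the test implies. They leave out the error of the WT changes, and the test of the difference between genotypes is given below. Col4a5 had -0.35 (SE 0.189, adjusted p = 0.18). Col15a1 fell by about as much as in WT (-0.29, SE 0.0936, adjusted p = 0.0304), a call lost in 9 of 26 alternatives, and it had -0.16 (adjusted p = 0.356) without the 4 muscle-bearing libraries.

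Among the fibrillar chains Col3a1, the homotrimeric collagen of soft tissue, read 549, 628, 416 and 591 CPM in KO at 30 °C and 450, 340, 361 and 356 CPM at 22 °C (-0.53, SE 0.16, adjusted p = 0.0225). KO replicate 3 at 30 °C overlapped with the 22 °C range. The call was lost when KO replicate 2 or 4 at 30 °C, KO replicate 2 or 3 at 22 °C or the muscle-bearing libraries were left out, with adjusted p between 0.0503 and 0.1 and log2 fold changes that stayed between -0.64 and -0.46 over all alternatives. Col1a1 and Col1a2 had -0.18 (SE 0.154) and -0.22 (SE 0.137) and did not pass. In counts, Col3a1 stood at 3.61 ± 0.175 (WT) and 3.78 ± 0.0699 (KO) times Col1a1 at 30 °C and at 3.11 ± 0.424 and 2.96 ± 0.307 times at 22 °C.

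Col6a1 fell from 142 ± 18.2 to 109 ± 15.7 CPM in KO (-0.38, SE 0.118, adjusted p = 0.027), with overlap, and Col6a2 from 143 ± 10.8 to 111 ± 12.8 CPM (-0.36, SE 0.104, adjusted p = 0.0184), without overlap. Without KO replicate 2 at 30 °C neither was called, at adjusted p = 0.0860 and adjusted p = 0.0536. Col6a3 had -0.22 (SE 0.153) and Col6a6 -0.44 (SE 0.257), and neither passed. Outside the main classes, Col28a1 fell from 9.44 ± 2.75 to 3.64 ± 0.624 CPM (-1.37, SE 0.293, adjusted p = 0.00329) and Col8a1 did not pass (-0.53, SE 0.226, adjusted p = 0.0947). Col7a1 rose from 4.78 ± 1.40 to 10.5 ± 2.59 CPM (1.13, SE 0.237, adjusted p = 0.00297). Col20a1, a fibril-associated chain, rose from 4.41 ± 1.40 to 7.22 ± 0.611 CPM (0.71, SE 0.189, adjusted p = 0.0129), and in WT it had 0.41 (adjusted p = 0.0977). Col11a2 rose by 0.55 (SE 0.192, adjusted p = 0.0442), a call lost in 15 of 26 alternatives. Col11a1 was called at 2.87 (SE 0.956, adjusted p = 0.0368) on 0 to 20 counts a library, and was lost in 8 of 24 alternatives. In WT it had 2.12 (SE 0.904, adjusted p = 0.076), and the difference between the KO effects was 0.75 (SE 1.39).

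The third comparison asks how the knockout differed from WT at 22 °C. Col4a1 and Col4a2 were higher in KO, and no other collagen chain was called. Of the 30 chains 2 rose and none fell (edgeR), where 17.6% of all genes were called, 7.52% as higher and 10.1% as lower. The called share of the collagens, 6.67%, was below that background. Their median was 0.14 against 0.02. By class, 2 of 7 basement membrane chains rose (median 0.15), none of 6 fibrillar chains (median -0.05, 0 at an unadjusted p under 0.05) and none of 4 type VI chains (median 0.05, likewise 0). Of all 14103 genes tested 4888 had an unadjusted p under 0.05. Given above by library, Col4a1 averaged 913 ± 163 CPM among KO libraries against 664 ± 81.0 CPM among WT libraries (log2 fold change 0.46, SE 0.11, adjusted p = 0.011). The lowest KO and the highest WT library both read 762 CPM. Col4a2 stood at 606 ± 64.7 and 463 ± 52.7 CPM (0.39, SE 0.0886, adjusted p = 0.00862), without overlap. KO replicate 1, the highest library for both and the one with the largest share of skeletal muscle markers, was not needed for the calls: without it the log2 fold changes were 0.33 (adjusted p = 0.0248) and 0.31 (adjusted p = 0.0229). They were 0.33 (adjusted p = 0.0644) and 0.31 (adjusted p = 0.0597) without all 4 muscle-bearing libraries. In a fit on the 2 groups alone they were 0.46 (adjusted p = 0.0988) and 0.39 (adjusted p = 0.0908), so that neither was called in either setting. Over all genes the fit on the 2 groups called 634 of 13149, and the fit without the muscle-bearing libraries 1432 of 14397. Without WT replicate 4 at 22 °C 4 chains were called, where 3080 of 14274 genes were.

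**Figure D4:**
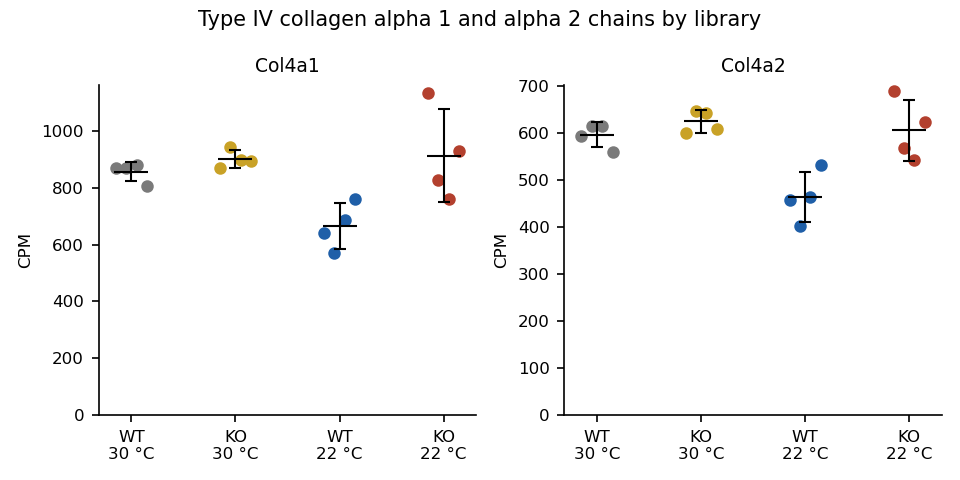
CPM (vertical axes, from 0) of Col4a1 and Col4a2 in each library (points, replicates 1 to 4 from left to right) of the 4 groups, with mean and SD (bars, n = 4). The WT libraries at 22 °C lie at 569 to 762 CPM for Col4a1 and 402 to 531 CPM for Col4a2, below the WT libraries at 30 °C in both panels.

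Relative to each other, fibrillar chains stood at 0.766 ± 0.113 times the basement membrane sum in WT at 22 °C and at 0.536 ± 0.0397 times in KO at 22 °C, with ranges of 0.652 to 0.875 and 0.496 to 0.591 that did not overlap. At 30 °C the ratios were 0.689 ± 0.141 in WT and 0.671 ± 0.0939 in KO. At 22 °C the fibrillar sum averaged 877 ± 103 CPM in KO and 951 ± 104 CPM in WT, the basement membrane sum 1642 ± 222 and 1251 ± 135 CPM, and the type VI sum 329 ± 46.8 and 320 ± 18.7 CPM. Col1a1 read 110, 131, 168 and 153 CPM in WT and 132, 127, 125 and 125 CPM in KO (-0.15, SE 0.154), with the KO values inside the WT range. Col28a1 and Col8a1 were higher in KO by 0.77 (SE 0.307, adjusted p = 0.0924) and 0.56 (SE 0.23, adjusted p = 0.1) and did not pass.

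At 30 °C no collagen chain was called between KO and WT by edgeR, DESeq2 or limma-voom. Of the 30 chains, 3 had an unadjusted p under 0.05 by edgeR and 4 by each other tool. By edgeR 608 of all 14103 genes tested had an unadjusted p under 0.05, and 0.0425% were called. Col4a1 differed by 0.07 (95% interval -0.14 to 0.29), Col4a2 by 0.07 (-0.11 to 0.24) and Col3a1 by 0.08 (-0.23 to 0.39). Col14a1, a fibril-associated chain named after its values were seen, had the smallest p of the chains outside the named ones (3.17 to 5.04 CPM in WT, 6.79 to 8.79 CPM in KO, 0.88, unadjusted p = 0.00773, adjusted p = 0.998).

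Testing whether the KO effect differed between temperatures called none of the 30 chains by any of the 3 tools, where 3.14% of all genes were called by edgeR. The unadjusted p was under 0.05 for 3 chains by edgeR, 3 by DESeq2 and 1 by limma-voom. By edgeR, 2976 of all 14103 genes tested had an unadjusted p under 0.05. The difference was 0.38 (SE 0.155, unadjusted p = 0.0248, adjusted p = 0.172) for Col4a1, 0.32 (SE 0.125, unadjusted p = 0.0217, adjusted p = 0.163) for Col4a2 and 1.05 (SE 0.415, adjusted p = 0.165) for Col28a1. For Col3a1 it was -0.27 (SE 0.225, adjusted p = 0.51). So a dependence of the type IV response on genotype did not pass the test over all genes. The comparisons above share groups of libraries: the WT libraries at 22 °C enter the first, the third and this one.

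Genes that work with collagens were followed in lists. Fibril partners, the small proteoglycans and glycoproteins that coat or link fibrils, fell in larger number than the fibrillar chains, a difference that was not tested. In WT at 22 °C 13 of 19 fell and none rose (median -0.70), where 17.8% of all genes fell. Bgn, which encodes biglycan, went from 104 ± 11.6 to 54.9 ± 3.41 CPM (-0.92, adjusted p = 2.62e-06) and Dcn, decorin, from 234 ± 17.4 to 143 ± 14.8 CPM (-0.72, adjusted p = 3.05e-05). In KO 5 of 19 fell, where 13.0% of all genes did, with Bgn at -0.74 and Dcn at -0.03 (adjusted p = 0.822). At 22 °C 8 of 19 were higher in KO than in WT, where 7.52% of all genes were. The difference between the KO effects passed for 3 of 19, where 3.14% of all genes were called. These were Dcn (0.69, adjusted p = 0.0128), Ogn (1.05, adjusted p = 0.0186) and Lum (0.71, adjusted p = 0.0409), all small leucine-rich proteoglycans. Ogn read 16.1 to 19.5 CPM in KO and 7.66 to 14.2 CPM in WT at 22 °C. At 30 °C it was the lower in KO, at 14.0 to 15.1 against 17.0 to 22.6 CPM, so its difference draws on both temperatures. No fibril partner was called between genotypes at 30 °C.

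Of 16 other basement membrane genes tested 10 fell and 2 rose in WT (median -0.48), where 17.8% of all genes fell and 20.5% rose. In KO 3 of 16 fell and 2 rose, where 13.0% and 13.8% of all genes did, and at 22 °C 3 were higher in KO, where 7.52% of all genes were. Hspg2, the heparan sulfate proteoglycan perlecan, went from 643 ± 49.4 to 347 ± 77.5 CPM in WT (-0.89, adjusted p = 7.13e-05) and from 597 ± 53.3 to 508 ± 45.4 CPM in KO (-0.23, adjusted p = 0.186). It was higher in KO at 22 °C by 0.55 (adjusted p = 0.00885), as were Lama5, a laminin chain, by 0.68 (adjusted p = 0.0126) and Nid2, nidogen 2, by 0.56 (adjusted p = 0.0162). Nid2 fell in both genotypes (-1.31 and -0.67). The laminin chains Lamb1 (0.71 and 0.81) and, named after its values were seen, Lamb3 (1.77 and 1.61) rose in both.

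**Figure D5:**
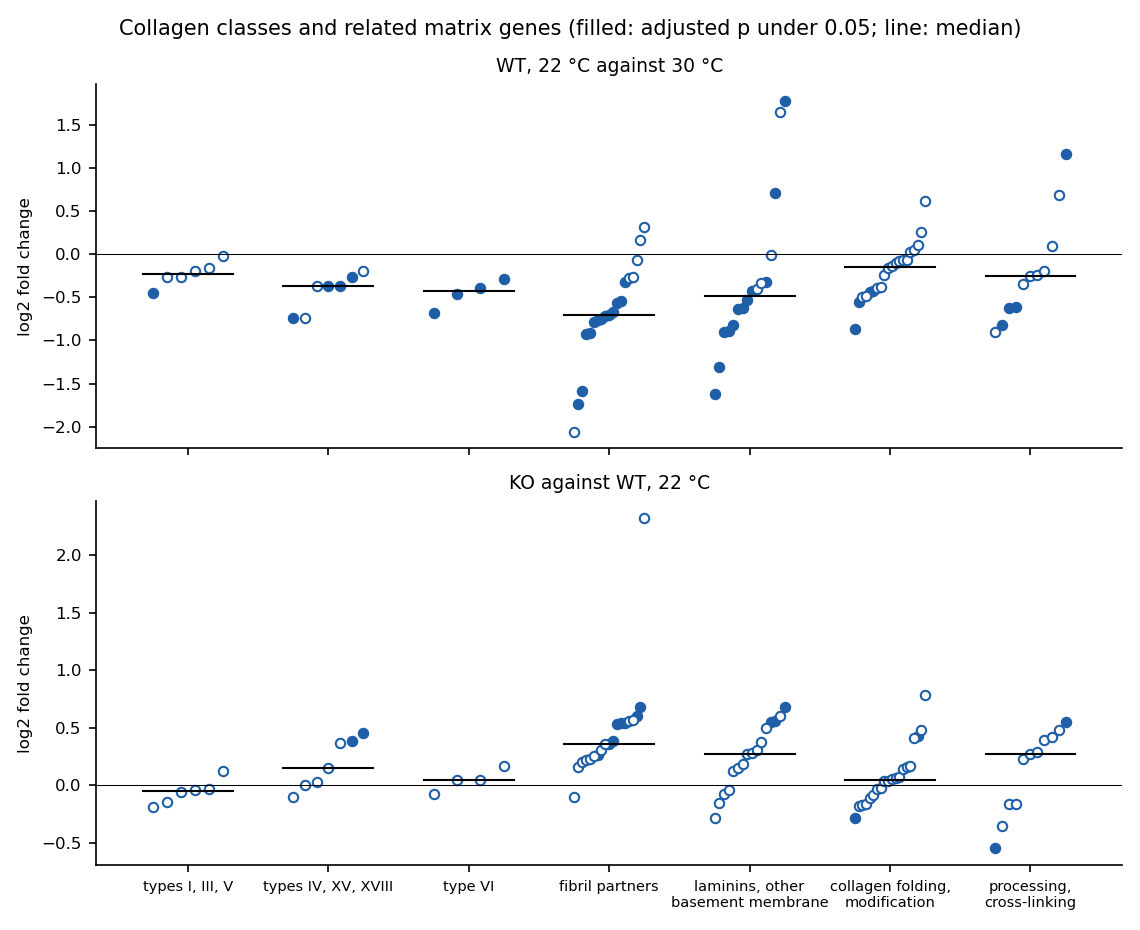
Log2 fold change (vertical axes) of each tested gene (points, ordered by value within a set; filled where adjusted p is under 0.05; line, median) in the collagen classes and 4 lists of related genes, for WT at 22 °C against 30 °C (top) and KO against WT at 22 °C (bottom). In the top panel the medians run from -0.70 for fibril partners to -0.15 for collagen folding and modification; in the bottom panel no point of types I, III, V or type VI is filled.

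Of 20 tested enzymes and chaperones that fold and modify collagen in the endoplasmic reticulum 4 fell and none rose in WT at 22 °C (median -0.15), a share near the 17.8% of all genes that fell. In KO 6 of 20 fell and none rose, where 13.0% of all genes fell. At 22 °C 1 was higher and 1 lower in KO than in WT, where 7.52% and 10.1% of all genes were. Colgalt1, a collagen galactosyltransferase, fell in both genotypes (-0.55 and -0.40), as did P3h4, a partner of lysyl hydroxylase (-0.87 and -0.53). Of 11 tested genes of propeptide removal and cross-linking 3 fell and 1 rose in WT, and 1 fell and 1 rose in KO, on the same backgrounds of 17.8% and 13.0% lower. The shares of all genes that rose were 20.5% in WT and 13.8% in KO. Loxl1, a lysyl oxidase of elastic fibres, rose from 12.2 ± 0.159 to 27.3 ± 9.61 CPM in WT (1.16, adjusted p = 0.000128) and from 12.8 ± 0.922 to 40.1 ± 3.05 CPM in KO (1.64, adjusted p = 2.52e-05).

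Of 17 tested genes of collagen breakdown 7 fell and 1 rose in WT, and 6 fell and 1 rose in KO. Of all genes 17.8% and 13.0% fell, and 20.5% and 13.8% rose. Mmp12, the macrophage metalloelastase, went from 18.3 ± 5.09 to 0.966 ± 1.07 CPM in WT (-4.26, adjusted p = 2.87e-05) and from 18.7 ± 9.73 to 0.225 ± 0.119 CPM in KO (-6.34, adjusted p = 1.78e-05). Mmp14, a membrane-bound collagenase, fell by 0.73 in each genotype. Of 10 collagen receptors 4 fell in WT and 1 in KO, the latter share being near the 13.0% of all genes. Ddr2, a receptor for fibrillar collagen, fell in WT (-0.59, adjusted p = 0.00281) and was higher in KO at 22 °C (0.59, adjusted p = 0.00847).

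Among 24 genes of TGF-beta and other fibrogenic signals, which drive collagen transcription in fibroblasts, 5 were higher and 3 lower in KO than in WT at 22 °C, where 7.52% of all genes were higher and 10.1% lower. Smad3, which carries the TGF-beta signal to the nucleus, averaged 72.1 ± 21.1 CPM in KO against 24.3 ± 6.08 CPM in WT (1.57, adjusted p = 0.000112), and Smad7, an inhibitor of the same pathway, stood at 17.4 ± 3.70 CPM in KO and 8.89 ± 1.30 CPM in WT (0.97, adjusted p = 0.000849). The difference between the KO effects passed for Smad3 (1.69, adjusted p = 0.00451), Smad7 (0.84, adjusted p = 0.0484) and Pdgfd (-0.91, adjusted p = 0.0223), where 3.14% of all genes were called. Their list held 6 called genes in WT at 22 °C against 30 °C, of which 5 fell. In KO it held 9, of which 5 fell and 4 rose, where 13.0% and 13.8% of all genes did. The 5 of 24 that fell in WT are near the 17.8% of all genes.

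Markers of several cell types were called in the same comparisons, and which of these cells made the collagen RNA was not measured. In WT at 22 °C 6 of 8 endothelial, 3 of 8 mural (pericyte and smooth muscle), 6 of 7 macrophage and 4 of 8 fibroblast and progenitor markers fell, and 0, 2, 0 and 1 rose. Of all genes 17.8% fell and 20.5% rose. In KO 5 endothelial, 2 mural, 6 macrophage and 1 fibroblast markers fell and 3 mural markers rose, where 13.0% of all genes fell and 13.8% rose. At 22 °C 4 endothelial, 5 mural and 1 fibroblast markers were higher in KO, and 1 mural marker was lower, where 7.52% of all genes were higher and 10.1% lower. The endothelial markers summed to 0.132% to 0.143% of counts in WT at 30 °C, 0.0692% to 0.0868% in WT at 22 °C, 0.135% to 0.154% in KO at 30 °C and 0.0861% to 0.113% in KO at 22 °C. The fibroblast markers summed to 0.0472% to 0.0535%, 0.0255% to 0.0306%, 0.0429% to 0.0523% and 0.0352% to 0.0454% in the same order. Both sums are shares of raw counts without TMM factors, so they cannot be set beside collagen CPM. On the raw scale all collagens averaged 0.364%, 0.243%, 0.356% and 0.300% in this order. Decorin is on both the fibroblast and the fibril partner list. Of 7 brown adipocyte markers 5 rose in WT at 22 °C and 3 in KO, where 20.5% and 13.8% of all genes rose. At 22 °C 1 was lower in KO than in WT, where 10.1% of all genes were. Ucp1, the marker that defines the tissue, stood at 1518 ± 92.2 CPM in WT at 30 °C. The part of these cell types in the collagen values was not tested.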

How the data were processed

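Raw read counts per Ensembl gene were deposited for 16 libraries; the whole-number values show no normalisation by the authors. Tools named in the submitters' processing notes are FastQC 0.10.1, STAR 2.4.2a and edgeR 3.14.0, with builds GRCm38 and mm10. Not given in the sources used here were the counting program, annotation and strand, so reads of overlapping exons, such as the 22 bases shared by Col4a1 and Col4a2, cannot be assigned. Symbols were matched for 37607 identifiers and not for 1317, which held at most 0.131% of a library. Coordinates and exon lengths are from GENCODE M21 (GRCm38), and promoters from RefSeq (GRCm38.p6).

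Groups came from sample titles. The analysis used R 4.3.3 and edgeR 4.0.16: filterByExpr with a minimum count of 10 (14103 genes), TMM factors (0.8514 to 1.101), 1 quasi-likelihood fit with a term per group, 5 contrasts, and Benjamini-Hochberg adjustment over all genes tested, with genes called at an adjusted p under 0.05. The standard error was taken as the size of a log2 fold change over the square root of its F. Intervals given as 95% use the normal multiple of this error, so they are somewhat narrower than the quasi-likelihood test implies. The typical biological coefficient of variation was 22.55%, and counting error is small against it except for chains with few counts. The fit was tested on simulated data.

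Alternatives were upper-quartile and relative-log-expression factors, a filter on CPM (at least 1 in 4 libraries, mean count 20) or none, DESeq2 1.42.0, limma-voom (limma 3.58.1) with quality weights, only the groups compared, a replicate block, each library left out, and leaving out 4 libraries with over 0.1% skeletal muscle markers. TMM factors without the 50 most abundant genes were added after seeing the data. Class sums have no test. Members and the 16 gene lists were chosen with earlier results of these data known. Tested chains were named if they belong to types I, III, V, IV, XV, XVIII or VI or were called in at least 1 comparison. List genes were named among up to 4 called members with the smallest p per list and comparison. Exceptions are marked.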

Additional observations from a re-analysis of the deposited data

Results flagged for a closer look

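Levels of 24 chains in 4 groups were searched for a library apart from the other 3 of its group. Of 96 groups of 4 libraries 10 had one, where chance flags about 1 in 20. The chains were measured in the same libraries, so the flags are not independent and their number is not a test.

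WT replicate 1 stood out for Col6a2 at both temperatures, at 174 CPM at 30 °C (the others 129 to 134) and at 106 CPM at 22 °C (the others 120 to 122). These are different libraries with the same replicate number, and the labels do not say whether the number marks anything they share. WT replicate 4 at 30 °C was low in Col4a1 at 806 CPM (the others 870 to 879), and WT replicate 3 at 22 °C was low in Col4a3 at 1.13 CPM (the others 1.59 to 1.68).

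In KO at 30 °C, replicate 3 was low in Col5a2 at 43.8 CPM (the others 51.7 to 53.3) and high in Col13a1 at 7.93 CPM (4.59 to 4.96). Replicate 2 was high in Col18a1 at 35.0 CPM (25.8 to 27.0), and replicate 1 was high in Col15a1 at 121 CPM (102 to 104). In KO at 22 °C, replicate 1, the library with the most skeletal muscle counts, was high in Col1a2 at 193 CPM (162 to 166) and low in Col4a5 at 3.88 CPM (5.94 to 6.21).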

How the results depend on the processing

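Of 648 alternative values of single chains 547 kept their call, 101 kept the direction and lost the call, and 0 changed direction. Only changes called in the main fit entered this tally. Part of the alternatives left out a library outside the 2 groups compared. Such a library acts only through the filter, the scaling and the shared spread, so the tally overstates how much was varied. In WT at 22 °C against 30 °C, the 14 calls became 8 to 15 with 1 library left out. Over all genes 4509 to 5929 were called in those settings, against 5406 in the main fit. In KO the 9 calls became 4 to 10 with 1 library left out, 14 by limma-voom and 3 without the 4 muscle-bearing libraries, which leaves fewer samples. Over all genes the main fit called 3772 of 14103, and 2729 to 4653 were called with 1 library left out. By limma-voom 6067 of 14103 were called, and 2115 of 14397 without the muscle-bearing libraries. For KO against WT at 22 °C the 2 calls became 2 to 4 with 1 library left out, 0 in a fit on only the groups compared and 0 without the muscle-bearing libraries. Over all genes 2482 of 14103 calls became 1936 to 3080, 634 of 13149 and 1432 of 14397 in the same order. The cause of the other changes was not tested. At 30 °C and for the difference between KO effects the count was 0 in every alternative. Upper-quartile factors moved the median of all genes to -0.13 in WT and -0.08 in KO at 22 °C against 30 °C, and the collagen median to -0.42 and -0.33. The replicate numbers were not taken to pair the samples, since 13 of 24 same-numbered pairs, not all, had a correlation over 0.1 (median 0.169, range -0.503 to 0.519, against a median of -0.0363 for other pairs across groups), and in 17 of 48 library and group combinations a library correlated best with its own number. With the replicate block 11, 8, 3, 0 and 0 chains were called in the 5 comparisons. Over all 14103 genes it called 5169, 3406, 2092, 6 and 186 in the same order. Col4a3, Col4a4 and Col11a1 had low counts, and how far depth limits them was not tested.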

Other observations

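Further chains were present without a called change. Col27a1, a fibrillar chain known from cartilage, was as abundant as some type VI chains, at 70.9 to 231 CPM, and its highest value came from WT replicate 3 at 30 °C, where the other libraries of that group read 86.7 to 129 CPM. Col12a1, a fibril-associated chain of dense connective tissue, read 8.08 to 50.3 CPM, with its highest value in KO replicate 1 at 22 °C, the library with the most skeletal muscle counts, and 11.8 to 17.0 CPM in the other KO libraries at 22 °C. Col23a1, a transmembrane chain, stood at 6.61 to 11.3 CPM and Col16a1 at 3.94 to 6.34 CPM over the 16 libraries.

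Ratios of chains that assemble together differed in their spread over the 16 libraries. Col1a1 counts were 0.683 to 0.844 times those of Col1a2, although the type I trimer holds more of the first chain, and Col6a1 counts were 0.836 to 1.06 times those of Col6a2. Per kilobase of exon these ratios were 1.29 to 1.60 and 1.59 to 2.02. They depend on the merged exon lengths, which are 6563 bases for Col1a1 and 12426 for Col1a2. For Col6a1 and Col6a2 the lengths are 4380 and 8326 bases. Col5a1 counts were 0.991 to 1.40 times those of Col5a2, a wider range, with 1.04 ± 0.0496 in WT at 30 °C and 1.26 ± 0.119 in WT at 22 °C (SD, n = 4).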
